A study of Mus musculus with 6 samples.

Results

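The 8 genes described here encode the nuclear subunits of cytochrome c oxidase that come in a muscle and a general form, with 2 genes that stand beside these pairs. They were taken by gene symbol from the 23238 distinct symbols of the count tables, where each of the 8 stood on 1 line. The muscle forms are Cox6a2, Cox7a1 and Cox8b, and the general forms of the same subunits are Cox6a1, Cox7a2 and Cox8a. Cox7a2l, a relative of subunit 7a that joins respiratory complexes into supercomplexes, and Cox4i2, a second form of subunit 4, complete the set. RNA came from the gastrocnemius, a calf muscle made mainly of fast fibres, of wild-type C57/BL6J mice aged 26 months. Farnesol, a sesquiterpene alcohol, had been given by mouth at 350 mg/kg for 30 days to 1 group (n = 3 libraries). The other group had received the vehicle, 5% DMSO in saline with 0.85% NaCl, for the same time (n = 3). Titles number the libraries of a group as biological replicates, but no label ties a library to 1 animal, and every p-value below rests on the spread among these 6 libraries alone.

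Cytochrome c oxidase, complex IV of the respiratory chain, passes electrons from cytochrome c to oxygen and pumps protons across the inner mitochondrial membrane. Its catalytic core is encoded in mitochondrial DNA, and the nuclear subunits around it shape its assembly and regulation. In rodents the subunits 6a, 7a and 8 have a heart and skeletal muscle form that replaces much of the general, or liver, form as muscle matures after birth. Cox7a1 and Cox8b are also known from brown fat, and Cox8b has no functional counterpart in humans.

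The muscle forms stood higher in farnesol than in vehicle libraries on average, by 1.5-fold for Cox8b, 1.39-fold for Cox7a1 and 1.24-fold for Cox6a2, and their general partners by 1.12-fold to 1.20-fold. None of the 8 genes passed edgeR's quasi-likelihood test over all 11674 genes tested, where 0 genes (0%) had an adjusted p under 0.05 and 351 an unadjusted one. DESeq2 and limma-voom likewise called 0 genes. Farnesol replicate 1 deviated most from the gene's mean log2 CPM for the muscle forms, Cox6a1, Cox7a2 and Cox4i2. For Cox8a vehicle replicate 2 deviated most, and for Cox7a2l farnesol replicate 2. Within the subunit 7a pair the muscle form took a larger share of counts in every farnesol library than in any vehicle library, 34.8% ± 3.18 against 31.2% ± 0.517 (SD, n = 3 each). Within the pairs of subunits 6a and 8 the shares of the groups overlapped.

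The libraries held 9895700 to 12707751 counts. Counts are given as CPM, scaled to a common library size by edgeR's trimmed-mean factors, so that 3 counts, the limit that a count of 0 allows, are 0.236 to 0.303 CPM before that scaling. Farnesol replicate 1 stood apart from the other 5 libraries. The ribosomal precursor Rn45s made up 4.97% of its counts and 9.92% to 15.4% of theirs. Its shorter transcripts stood higher: Spearman's rho between transcript length and the deviation from the gene's mean log2 CPM was −0.25 in this library and 0.02 to 0.099 in the other 5, a description across genes, which are not independent replicates. The 8 genes have transcripts of 360 to 1129 nt in GENCODE vM21, and all but Cox7a2l are of at most 800 nt. Of the 403 tested genes with a transcript of at most 800 nt, 73.4% were higher in farnesol, with a median log2 fold change of 0.13, against 49.1% and −0.01 of all tested genes. Without farnesol replicate 1 the median of the short genes was 0.04. For each of the 8 genes, the log2 fold changes without this library and with every library's trend on length removed are given beside the main one. In a bulk sample, fewer cells of a type and less RNA per cell cannot be told apart.

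The sequences around the annotated starts of 2 muscle forms and of their general partners are printed because both muscle forms stood highest among the 8 genes in fold change while their partners had smaller fold changes. RefSeq promoter windows (GRCm38.p6, 250 bases before to 50 after the start) were matched for 6 of the 8 genes. They are written 5′ to 3′ on the gene's strand, in lower case. Capitals mark matches on either strand to 3 motifs. The first is CAGCTG, an E-box of the kind that myogenic factors are known to bind in muscle genes. The second is TATAAA, known from promoters with a fixed start and common among tissue-specific genes. The third is CCGGAA, the core that factors of the ETS family are known to bind in many mitochondrial genes. Cox7a1 (chr7:30183921-30184220, plus strand) and Cox8b (chr7:140900397-140900696, minus strand) are the muscle forms. Cox7a2 (chr9:79759804-79760103, minus strand) and Cox8a (chr19:7217567-7217866, minus strand) are the general forms. The Cox7a2 window lies inside that gene's RefSeq span, which begins farther upstream, so it lies around a start other than the outermost one.
Cox7a1: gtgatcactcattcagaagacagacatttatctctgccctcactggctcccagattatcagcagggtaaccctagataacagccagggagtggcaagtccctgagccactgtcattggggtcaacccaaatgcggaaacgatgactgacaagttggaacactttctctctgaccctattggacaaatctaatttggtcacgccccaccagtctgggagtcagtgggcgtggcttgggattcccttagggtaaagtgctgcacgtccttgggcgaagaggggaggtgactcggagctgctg
Cox7a2: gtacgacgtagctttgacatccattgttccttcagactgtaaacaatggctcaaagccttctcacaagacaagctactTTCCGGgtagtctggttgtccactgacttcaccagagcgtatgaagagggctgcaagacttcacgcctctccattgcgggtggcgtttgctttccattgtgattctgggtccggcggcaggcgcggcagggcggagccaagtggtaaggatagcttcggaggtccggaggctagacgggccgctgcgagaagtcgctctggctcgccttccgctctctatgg
Cox8b: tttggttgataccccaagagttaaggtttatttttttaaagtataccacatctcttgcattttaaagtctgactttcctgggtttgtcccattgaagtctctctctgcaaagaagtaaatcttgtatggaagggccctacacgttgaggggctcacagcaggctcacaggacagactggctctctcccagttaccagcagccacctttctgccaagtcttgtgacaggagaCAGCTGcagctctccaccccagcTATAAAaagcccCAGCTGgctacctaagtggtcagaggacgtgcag
Cox8a: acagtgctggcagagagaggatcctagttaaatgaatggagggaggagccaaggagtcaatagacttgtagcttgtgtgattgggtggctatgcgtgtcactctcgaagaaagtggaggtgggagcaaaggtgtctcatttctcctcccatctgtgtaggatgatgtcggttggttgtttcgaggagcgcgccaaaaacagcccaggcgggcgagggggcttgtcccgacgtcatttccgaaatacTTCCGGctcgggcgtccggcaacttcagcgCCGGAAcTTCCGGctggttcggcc
The muscle windows held fewer CG dinucleotides than the general ones, 7 in Cox7a1 and 2 in Cox8b against 20 in Cox7a2 and 19 in Cox8a. The general form Cox6a1 had 32 and Cox7a2l 19. Of all 32851 windows, 28.1% held at least 19 and 51.4% at most 7. Cox8b had 2 matches to CAGCTG, a motif found in 16.3% of windows, and 1 to TATAAA, found in 13.6%. The TATAAA match and 1 of the E-box matches lay after the annotated start, and the other E-box match lay before it. The ETS core, found in 14.9% of windows, occurred 3 times in Cox8a and 1 time each in Cox7a2 and Cox6a1. Its matches in Cox8a did not overlap. Cox6a1 also held 2 matches to the palindromic motif of the factor NRF1, found in 4.6% of windows, and none of the 6 windows held AAGGTCA, known as a site of estrogen-related receptors and found in 4.72%. The motifs were chosen after the sequences had been seen, and a match is a description of letters, not of binding.

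Levels of the different genes were compared as CPM per kb of transcript, although 3′ tag counts need not scale with length. In vehicle libraries the mean CPM without this division gave the same order of genes. Cox6a2 was the most abundant, at 2373 ± 466 CPM per kb in farnesol and 1909 ± 59.3 in vehicle libraries (SD, n = 3 each). Cox4i1, the general form of subunit 4, stood next with 764 ± 177 in farnesol and 646 ± 24.6 CPM per kb in vehicle libraries. Per kb, Cox7a2 and Cox8b did not have a fixed order: Cox7a2 was above Cox8b in 2 of 6 libraries. Without the division Cox7a2 was above Cox8b in every library. The means were 382 against 258 CPM in farnesol and 328 against 172 CPM in vehicle libraries. Cox7a2 averaged 580 ± 92.1 CPM per kb in farnesol and 497 ± 13.1 in vehicle libraries. Cox8b averaged 717 ± 192 CPM per kb in farnesol and 477 ± 80.1 in vehicle libraries. Per kb, Cox7a1 followed, below Cox8b in 6 of 6 libraries, at 528 ± 164 CPM per kb in farnesol and 379 ± 1.35 in vehicle libraries. Without the division Cox7a1 stood above Cox8b in vehicle replicate 3, at 149 against 147 CPM. Cox7a2l, Cox8a and Cox6a1 came far below per kb, in that order in 6 of 6 libraries. For Cox7a2l, whose transcript is the longest, the gap to Cox7a1 was smaller without the division. Mean CPM was then 104 for Cox7a2l and 208 for Cox7a1 in farnesol libraries, and 116 and 149 in vehicle libraries. Cox7a2l stood at 92.2 ± 14.1 CPM per kb in farnesol and 103 ± 11.4 in vehicle libraries. Cox8a stood at 74.8 ± 8.93 CPM per kb in farnesol and 66.9 ± 23.8 in vehicle libraries, and Cox6a1 at 57.4 ± 18.9 in farnesol and 48 ± 10.6 in vehicle libraries. Cox4i2 was lowest, at 1.7 ± 1.59 CPM per kb in farnesol and 1.6 ± 0.304 in vehicle libraries. Per kb, the muscle form held 97.7% of subunit 6a mRNA in farnesol and 97.5% in vehicle libraries, and 90.3% of subunit 8 mRNA in farnesol and 87.3% in vehicle libraries. The forms of subunit 7a lay much closer together. In counts, without regard to length, the 3 muscle forms summed to 2589, 1808 and 1841 CPM in farnesol and to 1606, 1694 and 1558 CPM in vehicle libraries. The 3 general forms summed to 544, 405 and 419 CPM in farnesol and to 398, 362 and 415 CPM in vehicle libraries. Cox6a2 alone held 31.3% ± 0.98 of the counts of the 15 nuclear complex IV subunit genes in farnesol and 30.6% ± 0.748 in vehicle libraries.

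Cox8b (chromosome 7, 140898942 to 140900446), the muscle form of the small subunit 8, had 331, 251 and 193 CPM in the farnesol libraries, against 165, 204 and 147 CPM in the vehicle libraries. Farnesol replicates 1 and 2 lay above every vehicle library, and farnesol replicate 3 lay below vehicle replicate 2, so the groups overlapped. Its log2 fold change was 0.59 (SE 0.18), a fold of 1.5 with a 95% interval of 1.15 to 1.95 (edgeR unadjusted p = 0.00417, adjusted p = 1). Without farnesol replicate 1 the log2 fold change was 0.37 (edgeR unadjusted p = 0.0438). It was 0.39 after removal of each library's trend on transcript length (limma unadjusted p = 0.0208).

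Cox7a1 (chromosome 7, 30184171 to 30186030), the muscle form of subunit 7a, had 282, 169 and 172 CPM in the farnesol libraries, against 149, 148 and 149 CPM in the vehicle libraries. All farnesol values lay above all vehicle values, with farnesol replicate 1 far above the other farnesol libraries. The vehicle libraries agreed to an SD of 0.532 CPM, less than the 3.74 CPM that counting error alone gives. The log2 fold change was 0.48 (SE 0.18), a fold of 1.39 with a 95% interval of 1.08 to 1.8 (edgeR unadjusted p = 0.0138, adjusted p = 1). Without farnesol replicate 1 it was 0.19 (edgeR unadjusted p = 0.197), and with the length trend removed 0.27 (limma unadjusted p = 0.0885).

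Cox6a2 (chromosome 7, 128205435 to 128206366), the muscle form of subunit 6a, had 1976, 1389 and 1476 CPM in the farnesol libraries, against 1292, 1342 and 1262 CPM in the vehicle libraries. The farnesol values lay above all vehicle values, with farnesol replicate 2 only slightly above vehicle replicate 2. The log2 fold change was 0.31 (SE 0.16; edgeR unadjusted p = 0.0673, adjusted p = 1), and 0.14 without farnesol replicate 1. With the length trend removed it was 0.18. Cox6a2 lies within Itgad, an integrin gene on the opposite strand. Itgad held 112, 172 and 116 counts in farnesol and 63, 54 and 104 counts in vehicle libraries. Cox6a2 held 14303 to 22422 counts in farnesol and 13259 to 14890 counts in vehicle libraries.

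**Figure D1:**
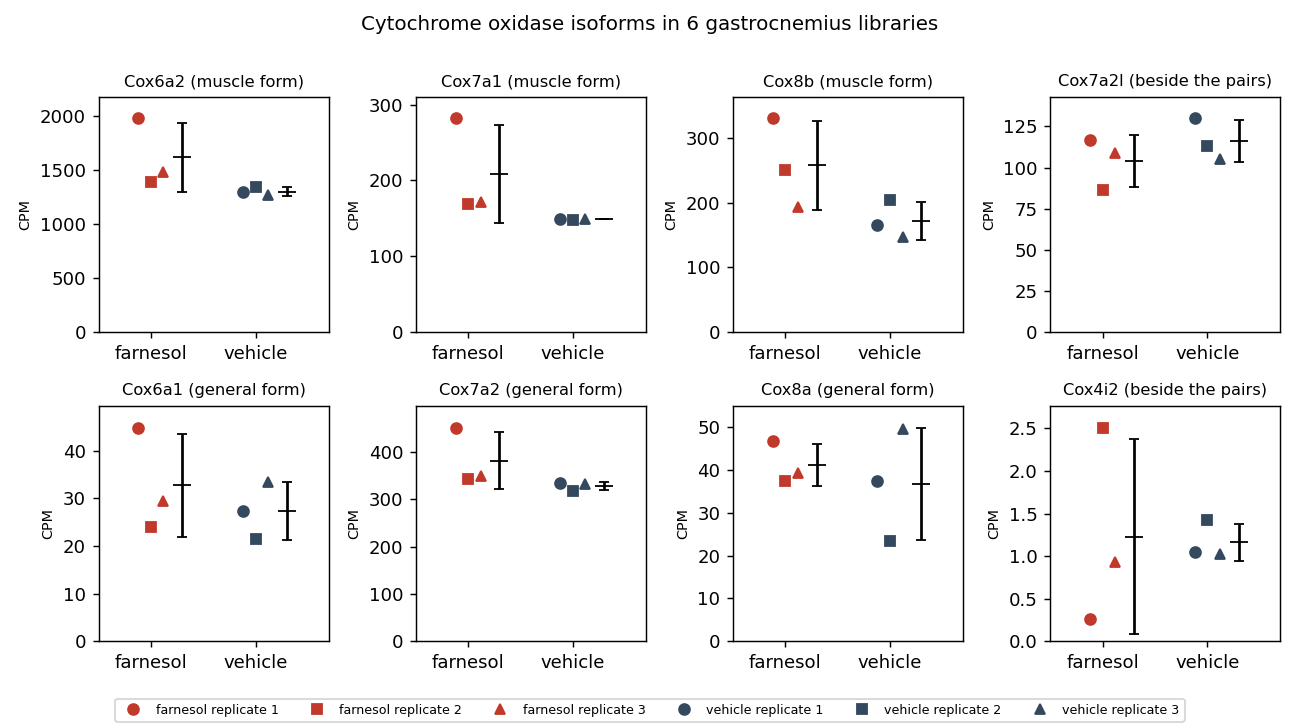
CPM of each gene (y axis, from 0, a separate scale per panel) in the farnesol and vehicle libraries (x axis), 1 symbol per library, with mean and SD as a bar beside each group (n = 3 each). Farnesol replicate 1 is the highest library for the 3 muscle forms, Cox6a1 and Cox7a2, at 1976 CPM for Cox6a2 and 282 CPM for Cox7a1, while Cox7a2l and Cox4i2 show other orders.

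Among the general forms, Cox7a2 (chromosome 9, 79755241 to 79771422) had 452, 344 and 350 CPM in the farnesol libraries, against 334, 318 and 332 CPM in the vehicle libraries. The groups did not overlap, and the margin between farnesol replicate 2 and vehicle replicate 1 was small. The log2 fold change was 0.22 (SE 0.15; edgeR unadjusted p = 0.155, adjusted p = 1), and the 95% interval of the fold ran between 0.939 and 1.45. The log2 fold change was 0.08 without farnesol replicate 1 and 0.09 with the length trend removed. Cox6a1 (chromosome 5, 115345652 to 115348958) had 44.9, 24.0 and 29.5 CPM in farnesol libraries, against 27.3, 21.4 and 33.5 CPM in vehicle libraries. Farnesol replicate 1 was the highest and the other farnesol libraries lay within the vehicle range. Its log2 fold change of 0.26 (SE 0.23; edgeR unadjusted p = 0.279, adjusted p = 1) was −0.04 without farnesol replicate 1 and 0.10 with the length trend removed. Cox8a (chromosome 19, 7215158 to 7217616) had 46.7, 37.4 and 39.3 CPM in farnesol libraries, against 37.5, 23.4 and 49.6 CPM in vehicle libraries. Here the vehicle libraries spread wider than the farnesol libraries and enclosed them. Its log2 fold change was 0.16 (SE 0.22; edgeR unadjusted p = 0.485, adjusted p = 1). Leaving out farnesol replicate 1 gave 0.06, and removing the length trend gave 0.08. It was −0.08 without vehicle replicate 2, the lowest library, and 0.43 without vehicle replicate 3, the highest.

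In 3 of the 8 genes, Cox6a2, Cox7a1 and Cox7a2, every farnesol value lay above every vehicle value, against 4.75% of all tested genes and 10.2% of the short ones. None lay wholly below, against 4.07% of all tested genes. An unadjusted p under 0.05 was found for 2 of the 8, Cox8b and Cox7a1, against 3.01% of all tested genes, or 1.75% with such a p and a higher farnesol value. Of the 403 short genes 24 had such a p. Without farnesol replicate 1, and likewise with the length trend removed, the count among the 8 was 1, Cox8b. Among all tested genes the count was 315 of 12036 without farnesol replicate 1 and 334 of 11244 with the length trend removed. Of the 8 genes 7 were higher in farnesol on average, against 49.1% of all tested genes. The median log2 fold change was 0.48 over the muscle forms and 0.22 over the general forms, and −0.01 over all tested genes. Without farnesol replicate 1 these medians were 0.19, 0.06 and −0.01.

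**Figure D2:**
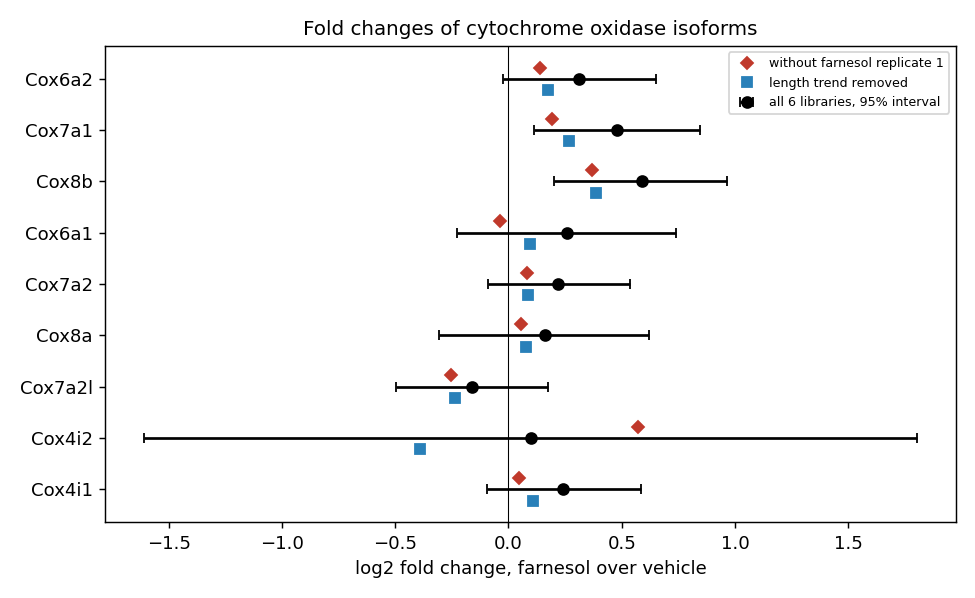
Log2 fold change of farnesol over vehicle (x axis) for the 8 genes and Cox4i1 (y axis), as the edgeR estimate with its 95% interval from all 6 libraries (black), without farnesol replicate 1 (red) and with the length trend removed (blue). The intervals of Cox7a1 and Cox8b lie above 0. Both alternative values lie left of the black point for Cox8b, 0.37 and 0.39 against 0.59.

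The ratio of the forms within a library needs no library scaling, so it asks whether the composition of the subunit's mRNA differed. It can still carry a trend on transcript length where the forms differ in length. For subunit 7a the log2 ratio of Cox7a1 to Cox7a2 counts was −0.68, −1.03 and −1.03 in the farnesol libraries, against −1.16, −1.10 and −1.16 in the vehicle libraries. Each farnesol ratio was above each vehicle ratio, most of all in farnesol replicate 1. The difference of means was 0.23, a ratio 1.17-fold as high in farnesol (exact two-sided permutation p = 0.1 with 3 libraries a group, which can give no smaller p). Without farnesol replicate 1 the difference was 0.11. The transcripts have 393 nt for Cox7a1 and 659 nt for Cox7a2. With the length trend removed, their log2 fold changes were 0.27 and 0.09, and the part of length in the ratio was not tested. As a share of counts, Cox7a1 made up 38.4% (exact 95% binomial interval 37.4 to 39.5%), 32.9% (31.8 to 34.1%) and 32.9% (31.6 to 34.2%) of the pair in farnesol libraries. In vehicle libraries it made up 30.9% (29.7 to 32.2%), 31.8% (30.5 to 33.2%) and 31.0% (29.7 to 32.2%). The intervals of farnesol replicates 2 and 3 overlapped those of the vehicle libraries, and the interval of farnesol replicate 1 lay apart from all others. Such intervals cover counting error only. Per kb of transcript the mean share of Cox7a1 was 47.1% in farnesol and 43.2% in vehicle libraries.

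For subunit 8, Cox8b made up 87.6%, 87.0% and 83.1% of the pair's counts in farnesol libraries, against 81.5%, 89.7% and 74.8% in vehicle libraries. The vehicle libraries held both the lowest and the highest share, and their spread was wider than the difference of the group means. The log2 ratio of Cox8b to Cox8a averaged 2.62 ± 0.28 in farnesol and 2.28 ± 0.79 in vehicle libraries, a difference of 0.34 (SD, n = 3 each, exact permutation p = 0.6). The difference was 0.244 without farnesol replicate 1 and −0.009 without vehicle replicate 3. For subunit 6a, Cox6a2 made up 97.8%, 98.3% and 98% of counts in farnesol libraries, against 97.9%, 98.4% and 97.4% in vehicle libraries. These shares were nearly the same in all 6 libraries. The log2 ratio of Cox6a2 to Cox6a1 differed by 0.06 between group means (5.65 ± 0.20 in farnesol and 5.59 ± 0.37 in vehicle, SD, n = 3 each, exact permutation p = 0.9). The difference was 0.158 without farnesol replicate 1.

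**Figure D3:**
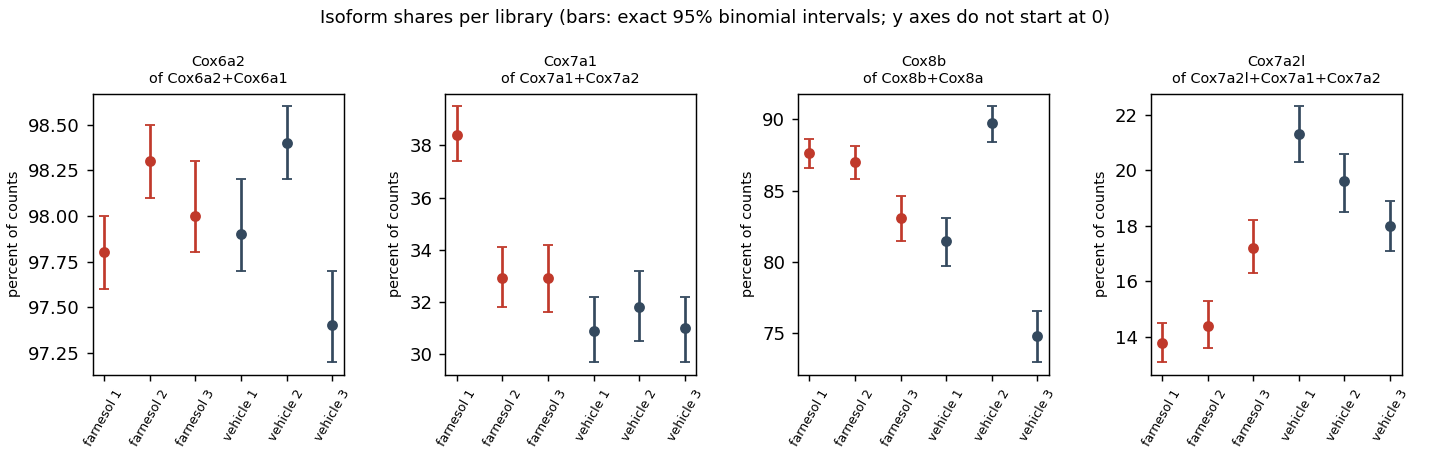
Share of counts in percent (y axis, not from 0) held by the first-named gene among the genes of each panel title, per library (x axis, farnesol in red and vehicle in blue), with exact 95% binomial intervals. The Cox7a1 share is highest in farnesol replicate 1 at 38.4%, the Cox7a2l share is at most 17.2% in every farnesol library and at least 18.0% in every vehicle library, and the groups overlap in the other panels.

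Cox7a2l (chromosome 17, 83501917 to 83514333), also called SCAF1 or COX7RP, links complex III to complex IV, and C57BL/6 mice are known to carry a shortened form of it. It had 117, 86.5 and 109 CPM in the farnesol libraries, against 130, 113 and 105 CPM in the vehicle libraries. It was the 1 gene of the 8 with a lower mean in farnesol, and the groups overlapped. The log2 fold change was −0.16 (SE 0.16; edgeR unadjusted p = 0.336, adjusted p = 1), and ran from −0.25 without farnesol replicate 1 to −0.04 without farnesol replicate 2. Set against both forms of subunit 7a, its log2 ratio was −2.65, −2.57 and −2.26 in the farnesol libraries, against −1.89, −2.04 and −2.19 in the vehicle libraries. Each farnesol ratio lay below each vehicle ratio. As a share of the 3 genes' counts, however, the exact 95% intervals of farnesol replicate 3 (16.3 to 18.2%) and vehicle replicate 3 (17.1 to 18.9%) overlapped. The difference of means was −0.45, a ratio 0.731-fold as high in farnesol (exact two-sided permutation p = 0.1, again the lowest value possible), and −0.38 without farnesol replicate 1. Its transcript of 1129 nt is the longest of the 8, and the trend on length stood at 0.27 log2 units at 500 nt in farnesol replicate 1, against −0.14 to 0.012 in the other libraries. With the length trend removed, the log2 fold changes were −0.23 for Cox7a2l, 0.27 for Cox7a1 and 0.09 for Cox7a2.

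Cox4i2 (chromosome 2, 152753916 to 152765039) encodes the form of subunit 4 known from lung, smooth muscle and pericytes, where it serves in oxygen sensing. It held 3, 30 and 9 counts in the farnesol libraries, against 11, 14 and 12 counts in the vehicle libraries. The farnesol libraries held both the lowest and the highest value. In CPM these were 0.264, 2.51 and 0.929 in farnesol libraries and 1.05, 1.42 and 1.02 in vehicle libraries. The log2 fold change of 0.10 (SE 0.82) came with a 95% interval of the fold between 0.328 and 3.49. Leaving out farnesol replicate 1 gave a log2 fold change of 0.57, and removing the length trend gave −0.39. The SD of the farnesol libraries, 1.15 CPM, was above the 0.307 CPM that counting error gives, and that of the vehicle libraries, 0.221 CPM, below their 0.33 CPM. It made up 0.0360%, 0.455% and 0.197% of subunit 4 counts in farnesol libraries and 0.210%, 0.299% and 0.200% in vehicle libraries. The log2 ratio to Cox4i1 differed by −0.65 between means (exact permutation p = 0.7, n = 3 and 3), and by 0.368 without farnesol replicate 1. Summed pericyte and smooth muscle markers stood at 232, 318 and 293 CPM in the same farnesol libraries, against 277, 340 and 274 CPM in vehicle libraries. Farnesol replicates 1 and 2 were thus the lowest and the highest of their group for these markers as for Cox4i2, and the part of these cells in the Cox4i2 values was not tested.

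**Figure D4:**
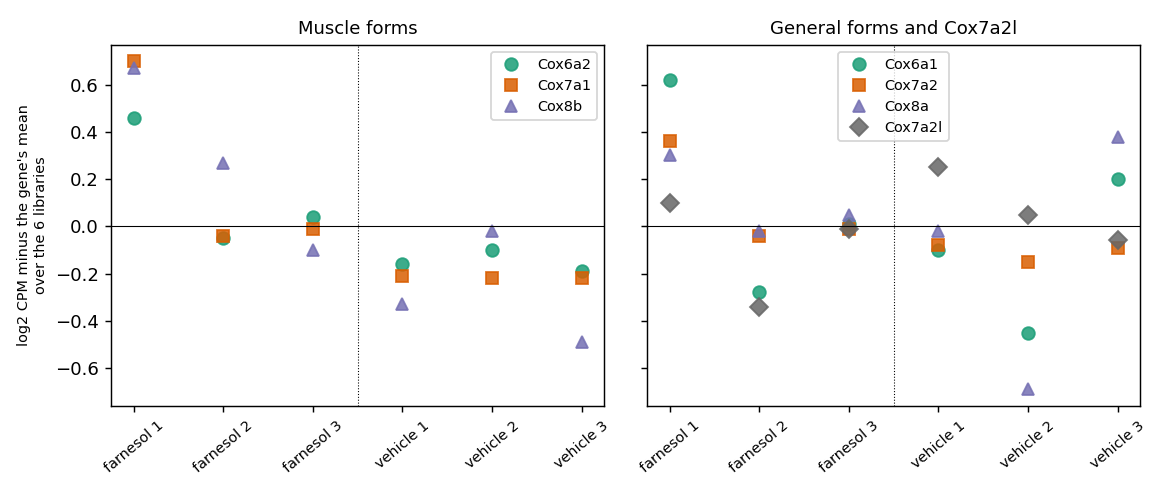
Log2 CPM of each gene minus its mean over the 6 libraries (y axis) in each library (x axis, farnesol left of the dotted line and vehicle right of it), for the muscle forms (left) and the general forms with Cox7a2l (right). The muscle forms lie 0.46 to 0.70 above their means in farnesol replicate 1 and between −0.49 and −0.02 in the vehicle libraries, whereas Cox6a1 and Cox8a scatter in both groups.

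The other nuclear subunits of complex IV showed the direction of the pairs. All 8 of the other listed subunits (Cox4i1, Cox5a, Cox5b, Cox6b1, Cox6c, Cox7b, Cox7c and Ndufa4) were higher in farnesol on average and none passed the test, with a median log2 fold change of 0.23, and 0.10 without farnesol replicate 1. Cox7b, a small subunit of the complex, had 318, 246 and 281 CPM in farnesol libraries, against 205, 241 and 231 CPM in vehicle libraries. Those groups were separated by a small margin (log2 fold change 0.32, SE 0.15). Ndufa4, now counted as a complex IV subunit, had 93.4, 96.6 and 93.8 CPM in farnesol libraries, against 71.4, 80.1 and 81.5 CPM in vehicle libraries. Farnesol replicate 1 did not stand out for Ndufa4, whose log2 fold change was 0.28 (SE 0.15). Cox6b1 had a log2 fold change of 0.26 (SE 0.16) and Cox4i1 of 0.24 (SE 0.16), with overlapping groups. In 3 of these 8 subunits, Cox5a, Cox7b and Ndufa4, all farnesol values lay above all vehicle values, against 4.75% of all tested genes and 10.2% of the short ones. Cox7b and Cox5b, with transcripts of 1001 and 865 nt, are not among the short genes. The germline forms Cox7b2 and Cox8c were listed at 0 in all 6 libraries, and Cox6b2 summed with them reached at most 0.418 CPM in farnesol and 0.767 CPM in vehicle libraries.

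Of 27 assembly factors of complex IV, 24 were higher in farnesol and 3 lower, against 49.1% higher among all tested genes and 73.4% among the short ones. Of the 27, 0 passed the test. In 2 of the 27 all farnesol values lay above all vehicle values, against 4.75% of all tested genes, and in 1 all lay below, against 4.07%. Their median log2 fold change was 0.20, and 0.13 without farnesol replicate 1. Coa6, a copper-handling factor for subunit 2, had 9.61, 9.54 and 7.74 CPM in farnesol libraries, against 4.22, 7.08 and 5.34 CPM in vehicle libraries. The Coa6 groups did not overlap (log2 fold change 0.69, SE 0.33). Cox20, a chaperone of subunit 2, had a log2 fold change of 0.35 (SE 0.18), Cox19, of copper delivery, 0.54 (SE 0.28), and Taco1, a translational activator of subunit 1, 0.85 (SE 0.47). In these 3 the groups overlapped. Of 50 subunits outside complex IV, 46 were higher and 4 lower, with a median of 0.16 and 0.08 without farnesol replicate 1, and 0 passed. All farnesol values lay above all vehicle values in 14 of the 50, against 4.75% of all tested genes and 10.2% of the short ones. All lay below in 0, against 4.07% of all tested genes. The largest of the named ones was Uqcr10 of complex III, with a log2 fold change of 0.53 (SE 0.18), and Ndufb2 of complex I followed at 0.37 (SE 0.15).

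Likeness to the muscle forms was measured as the root mean square difference of centred log2 CPM over the 6 libraries, from the mean of Cox6a2, Cox7a1 and Cox8b, among 4126 genes of at least 20 CPM. The closest were D10Jhu81e (0.072), Ndufa3 (0.087) and Ndufv3 (0.096), then Timm8b (0.1), of mitochondrial protein import, and Endog (0.1), a mitochondrial nuclease. Ndufa3 and Ndufv3 encode subunits of complex I. The target stood at 0.61 in farnesol replicate 1 and at 0.06 or less in every other library. Genes chosen for such likeness were therefore bound to be highest in farnesol replicate 1, as all 5 were. Ndufa3, for example, had 273, 166 and 146 CPM in farnesol libraries, against 145, 145 and 137 CPM in vehicle libraries. Cox7a1 lay 0.117 from the mean of the other muscle forms, Cox6a2 0.148 and Cox8b 0.202. Among the general forms Cox7a2 was nearest to the muscle mean at 0.155, while Cox6a1 lay at 0.287 and Cox8a at 0.400. Cox7a2l, which stands beside the pairs, lay at 0.352. Cox4i1 lay at 0.144, at rank 33 of the 4126 genes.

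The tissue matched its label, with Myh4, the fast myosin, at 42054 to 53831 CPM in farnesol and 42551 to 62237 CPM in vehicle libraries. The liver markers Alb and Ttr, of the plasma proteins, summed with Apoa1 and Fgb to at most 6.95 CPM in farnesol and 3.74 CPM in vehicle libraries. Cox7a1 and Cox8b are also markers of brown fat, and the defining brown fat gene Ucp1 was listed at 0 in all 6 libraries. Eno1, an enolase of nearly every cell, was listed at 0 too, so a 0 in these tables can be a failed count. The 10 listed brown adipocyte genes summed to 24.1 to 25.4 CPM in farnesol and 22.3 to 30.4 CPM in vehicle libraries, with Ucp1 and Cpn2 at 0. Of the 6 tested, 3 were higher and 3 lower, 1 wholly above and 1 wholly below, against 4.75% and 4.07% of all tested genes. The 2 of highest mean, Ebf2 (log2 fold change −0.31, SE 0.29) and Prdm16 (0.08, SE 0.38), had overlapping groups. Cidea, a lipid droplet protein of brown fat, had 2.56, 3.01 and 2.48 CPM in farnesol and 0.959, 0.304 and 1.86 CPM in vehicle libraries. The Cidea groups did not overlap (log2 fold change 1.34, SE 0.68), but 0.304 CPM is close to the limit that a count of 0 allows. The part of brown fat in the results was not tested. White adipocyte markers summed to 2548, 2934 and 3102 CPM in farnesol and to 2190, 2776 and 2571 CPM in vehicle libraries, and 10 of 11 were higher, with a median of 0.34, and 0.25 without farnesol replicate 1. Car3 and Lpl, which muscle also expresses, had the highest levels of the list, Car3 at 1302, 1770 and 2060 CPM in farnesol and 1317, 1777 and 1431 CPM in vehicle libraries. The fat hormones ran in another order. Adipoq had 63.6, 39.7 and 34.4 CPM in farnesol and 45.2, 23.2 and 31.9 CPM in vehicle libraries, and Lep had 10.1, 7.03 and 6.29 CPM in farnesol and 3.93, 4.96 and 2.63 CPM in vehicle libraries. Both were highest in farnesol replicate 1, as the muscle forms were, and the part of fat in the values of the muscle forms was not tested. Erythroid genes, of red blood cells, were highest in farnesol replicate 1 like the muscle forms. They summed to 9725, 8103 and 5472 CPM in farnesol, against 3500, 5683 and 4454 CPM in vehicle libraries, with 5 of 6 higher and a median of 0.49. The part of blood content in the values of the muscle forms was not tested. Slow fibre markers, of the oxidative fibres rich in mitochondria, were higher in 12 of 12 members with a median of 0.25, and 0.41 without farnesol replicate 1, and summed to 2145, 3283 and 2189 CPM in farnesol, against 2270, 2343 and 1734 CPM in vehicle libraries. Farnesol replicate 1 was the lowest of its group here. Markers of immature or regenerating fibres, in which general forms are known to prevail, were higher in 2 and lower in 6 of 8 genes. Their median log2 fold change was −0.12, and 0.01 without farnesol replicate 1. Their sum was 849, 1668 and 1696 CPM in farnesol and 1591, 1767 and 1146 CPM in vehicle libraries. Most of that sum was 1 gene, Myh8, at 727, 1464 and 1476 CPM in farnesol and 1403, 1579 and 959 CPM in vehicle libraries. The sum was lowest in farnesol replicate 1, the library with the highest share of Cox7a1. The part of fibre maturity in that share was not tested. Of 8 macrophage genes 0 were higher, with a median of −0.25 and sums of 119 to 164 CPM in farnesol and 99.6 to 230 CPM in vehicle libraries. The sums of heart and endothelial genes overlapped between the groups as well, with heart genes (Myl7 at 0) at 51.4 to 91 CPM in farnesol and 52.8 to 75.7 CPM in vehicle libraries and endothelial genes at 117 to 149 CPM in farnesol and 119 to 159 CPM in vehicle libraries. Schwann cell genes summed to 76.3 to 86.9 CPM in farnesol and 59.3 to 75 CPM in vehicle libraries, which did not overlap, with 5 of 6 higher and a median of 0.10, and their part in the results was not tested. Fast and general muscle fibre genes summed to 170343 to 182079 CPM in farnesol and 134637 to 198598 CPM in vehicle libraries, with 9 of 11 higher and a median of 0.06.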

How the data were processed

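Per the labels' protocols, 500 ng of total RNA per gastrocnemius sample went into a Lexogen QuantSeq library, a kit that reads tags near the 3′ end of transcripts. For each library the authors deposited a table of whole-number counts, with 23282 lines under 23238 gene symbols. Lines with the same symbol were summed. The submitters' processing notes name Bowtie2, bedtools and mm10. How strand and reads with several matches were handled, and with which annotation, was not given in the sources used here. Of 50-base stretches of the transcripts, 12.3% of Cox6a1 and 17.7% of Cox7a2l also occurred in transcripts of other GENCODE vM21 genes, so multiple matches could touch those 2. For Cox6a2 the share was 3.33%, with Itgad, and for Cox4i1 14.7%, with Emc8. Itgad and Emc8 overlap these genes on the opposite strand, so there the handling of strand matters. The other 5 of the 8 genes had no such stretches, but inexact or unannotated copies were not searched.

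Single genes were tested with edgeR 4.0.16 in R 4.3.3 (filterByExpr with a minimum count of 10, trimmed-mean factors, robust glmQLFit and glmQLFTest, Benjamini-Hochberg adjustment over 11674 genes, threshold 0.05). The fit was tested on simulated data. The common biological coefficient of variation was 25.7%. Log2 CPM used a prior count of 2. Ratios of isoforms were tested by exact permutation, two-sided, with scipy 1.17.1. A total of 5 ratios were computed, and no p was adjusted over them, since none can go below 0.1. Alternatives were DESeq2 1.42.0, limma 3.58.1, DESeq2's size factors, other filters, leaving out Rn45s, the replicate number as a block and leaving out each library. The length alternative subtracted each library's lowess trend on transcript length, known for 96.3% of tested genes. Each gene has the length of 1 GENCODE transcript, with a RefSeq match preferred. Positions and promoters are RefSeq's for GRCm38.p6, the assembly behind mm10.

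The members and lists were chosen with earlier results of these data known. Named genes are the 8 members, Cox4i1, the 4 complex IV subunits, 4 assembly factors and 2 other subunits of smallest unadjusted p, and the 5 genes nearest in pattern. From each marker list the 2 members of highest mean were to be named, which was done only where a result turned on them. Further genes were named after their values were seen.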

Additional observations from a re-analysis of the deposited data

How the results depend on the processing

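The count of genes past the threshold was 0 in all but 2 of the settings tried: 13 without the filter on low counts, and 0 to 3 with each library left out, the 3 without vehicle replicate 2. No setting brought any of the 8 genes past it, the smallest adjusted p being 0.163, for Cox8b. Cox6a2, Cox7a1, Cox7a2, Cox8b and Cox7a2l kept their direction in all 14 alternatives. Cox6a1 changed sign without farnesol replicate 1 (−0.04; range −0.04 to 0.44) and Cox8a without vehicle replicate 2 (−0.08; range −0.08 to 0.43). Cox4i2 ran from −0.97 to 0.57 with each library left out and was −0.35 with limma-voom, −0.27 with the replicate block, −0.39 with the length trend removed and −0.97 without farnesol replicate 2, and the cause was not tested.

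With each library left out, the log2 fold change ran from 0.37 to 0.76 for Cox8b, 0.19 to 0.61 for Cox7a1 and 0.14 to 0.41 for Cox6a2. The log2 ratio difference ran from 0.11 to 0.28 for Cox7a1 to Cox7a2, −0.57 to −0.38 for Cox7a2l to both forms, −0.115 to 0.25 for Cox6a2 to Cox6a1, −0.009 to 0.77 for Cox8b to Cox8a and −1.47 to 0.368 for Cox4i2 to Cox4i1. The Cox6a2 ratio changed sign without vehicle replicate 3 (−0.115) and without farnesol replicate 2 (−0.038).

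No label ties same-numbered libraries together. Their deviations from the group means correlated at 0.037, 0.06 and −0.02. With 3 libraries a group, such values cannot show whether the libraries of a pair shared a batch. Over all genes the smallest edgeR adjusted p was 0.131 with the replicate number as a block and 0.563 without it. An unadjusted p under 0.05 was found for 428 genes with the block and for 351 without it. With the replicate block the genes past the threshold numbered 0, the log2 fold changes were 0.56 for Cox8b and 0.44 for Cox7a1, and the Cox7a1 to Cox7a2 difference was 0.227 with an exact sign-flip p of 0.25, the smallest that 3 pairs allow. The deviations of farnesol replicate 3 correlated at 0.006, 0.013 and −0.02 with those of vehicle replicates 1, 2 and 3, all near 0.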

Other observations

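Muscle and general forms of other metabolic enzymes were set side by side in the same way. Among 6 such pairs with counts in every library, the log2 count ratio of muscle to general form differed between farnesol and vehicle means by −0.28 for Pgam2 to Pgam1, of glycolysis, and by 0.47 for Ckm to Ckb, the cytosolic creatine kinases. It differed by 0.64 for Slc25a4 to Slc25a5, the carriers that exchange ADP and ATP, and by 0.00 for Cpt1b to Cpt1a, of fatty acid entry. Pfkm to Pfkl stood at −0.12 and Pygm to Pygb at −0.26. The groups overlapped in all 6 pairs. Eno1, a general enolase used by nearly every cell, was listed at 0 in all 6 libraries, so its pair with Eno3 could not be formed and a symbol at 0 here can be a failed count.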
